A study of Mus musculus with 2 samples.

Results

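The genes described here encode subunits of the mitochondrial respiratory chain and ATP synthase, in mouse primary hepatocytes treated with pregnenolone 16α-carbonitrile (PCN). They were chosen by symbol from the platform's gene table, as Nduf subunits of complex I, Sdh subunits of complex II, Uqcr subunits of complex III, Cox5 to Cox8 subunits of complex IV and Atp5 subunits of complex V. Cox4i1 and Cox4i2 do not match the symbol rule and are given apart. The rule found 67 of the 15644 named genes, each with 1 probe set, and no measured value entered it. Of the 67, 61 were measured, meaning an intensity (the deposited GCRMA value, on a linear scale) of 32 or more in at least 1 array, against 6449 of all named genes.

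The PCN group was hepatocytes given 10 µmol/l PCN for 12 h, and the DMSO group was hepatocytes given the solvent dimethyl sulfoxide for the same time. Both groups came, per the labels, from a male C57BL/6 mouse, 9 weeks old, and had 24 h in culture before treatment; the labels name no genetic alteration. For each group, 3 RNA samples were combined and read on a single Affymetrix array, which gives 2 arrays and no replicates. Every value is therefore that of 1 array, no test or p-value was possible, and "higher" and "lower" are used of this pair of arrays alone.

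The respiratory chain passes electrons from NADH (complex I) and succinate (complex II) through ubiquinone to complex III and, by cytochrome c, to complex IV, where oxygen is reduced. Complexes I, III and IV pump protons across the inner membrane, and complex V uses the gradient to make ATP. Hepatocytes are rich in mitochondria and draw on this chain for glucose output and urea synthesis. PCN activates the rodent pregnane X receptor (PXR), whose known targets are enzymes and transporters of drug metabolism.

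The subunits of the chain were nearly level between the arrays. Over the 61 measured subunits the median log2 difference, PCN minus DMSO, was -0.00029, with a range from -0.48 to 0.23, beside a median of 0.032 over all 6449 measured genes. PCN was higher in 30 subunits, where 57.6% of all measured genes were higher, and lower in 31, where 42.4% of all were lower. Of the 61, 1 subunit gene was at least 1.2-fold lower with PCN, while 8.95% of all measured genes passed that size. None of the subunits was at least 1.2-fold higher, a size that 9.06% of all measured genes passed.

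**Figure D1:**
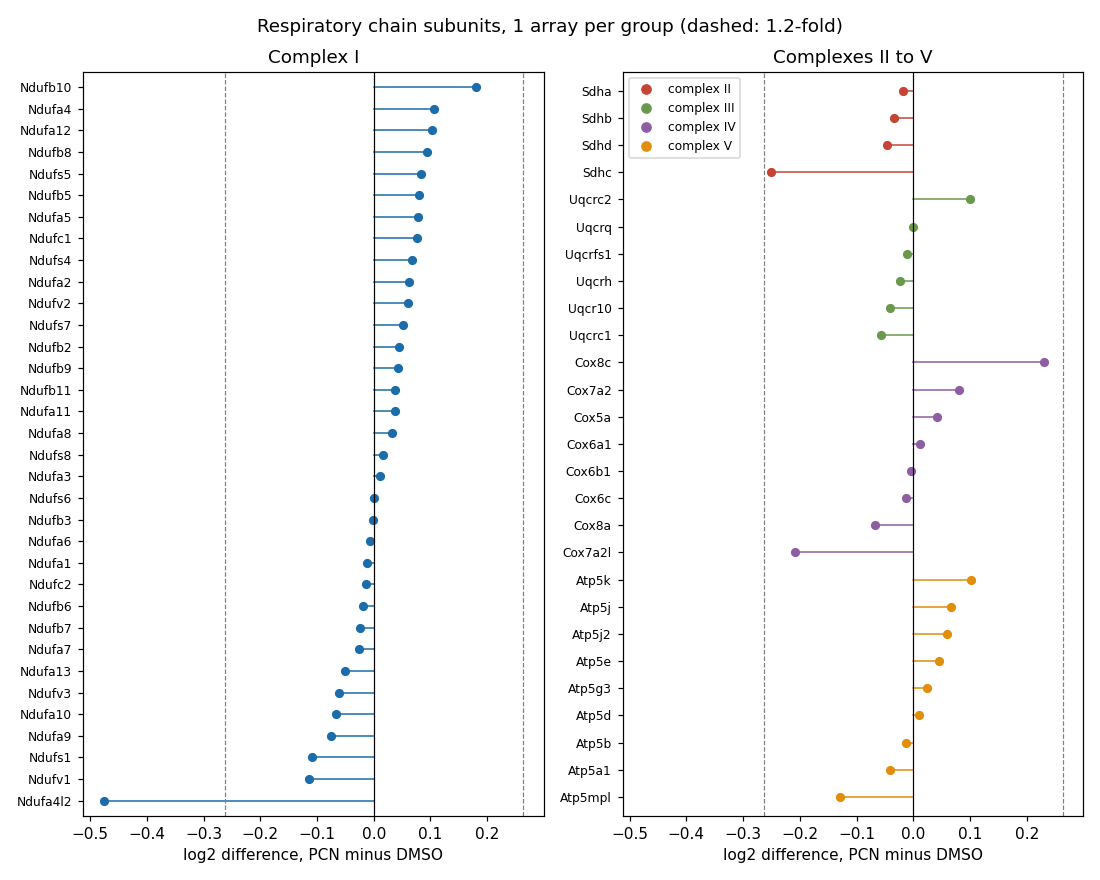
Log2 difference in intensity, PCN minus DMSO, of the 61 measured subunits (1 point per gene, 1 array per group), with complex I on the left and complexes II to V on the right. Only Ndufa4l2, at -0.48, lies past the dashed lines at 1.2-fold, and Sdhc at -0.25 and Cox8c at 0.23 lie next to them.

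The spread over the subunits was also narrow. A difference of no more than 0.1 on the log2 scale was seen in 49 of the 61 (80.3%), against 42.8% of all measured genes. Bright probe sets vary less, and the subunits were bright, with a median intensity of 2511 with PCN and 2595 with DMSO. For that reason the genes between the 10th and 90th percentile of the subunits' mean log2 intensity, 826 to 6226, were taken as genes of like intensity. In this range the log2 difference had an SD of 0.074 over 49 subunits and of 0.17 over the 1131 other genes. The match is only partial, since the 49 subunits were still brighter within it. Their median intensity was 2511 with PCN and 2595 with DMSO, against 1507 and 1481 for the other genes. The range leaves out 12 of the 61 measured subunits, among them Ndufa4l2, Cox7a2l and Cox8c, which lay far from 0, and over all 61 the SD was 0.10. The 9 bacterial and phage spike-in controls of the range, which are added from outside and do not depend on the cells, had an SD of 0.075. These SDs are over genes, which are not independent replicates, and do not include the spread between cultures.

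**Figure D2:**
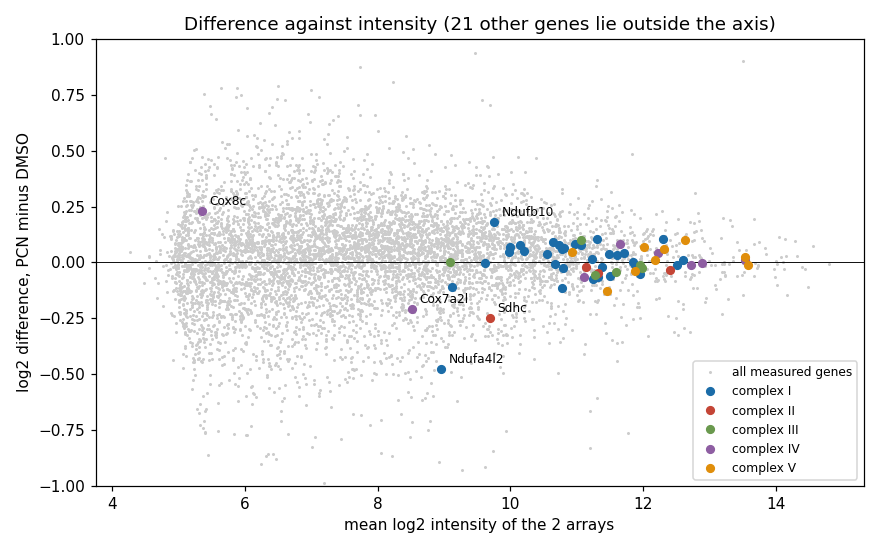
Log2 difference, PCN minus DMSO, against the mean log2 intensity of the 2 arrays, for all measured genes (grey) and the subunits (coloured by complex). The subunits lie mostly at the bright end within 0.1 of 0, with Ndufa4l2, Sdhc and Cox7a2l below the others; 21 other genes lie beyond the axis.

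Many nuclear genes of the chain are known to share the activators NRF1 and GABP, an ETS family factor, and YY1, so the windows upstream of the subunit genes were read. A promoter of 300 bases (250 before the start and 50 after it, RefSeq, build GRCm38.p6) was found for 55 of the 67 genes, 50 of them measured. On either strand and with overlaps allowed, the letters searched were GCATGCGC for the core of the NRF1 site, CCGGAAG for ETS factors, AAGATGGC for YY1 and AGTTCA for the half-site that PXR binds. The first sequences below belong to the measured genes with the largest difference each way among those with 1 window, Ndufb10 (higher with PCN, chr17:24724374-24724673, minus strand) and Cox7a2l (lower with PCN, chr17:83514284-83514583, minus strand). The others are the genes with 1 window and the most matches to the NRF1, ETS and YY1 letters, 3 each, Cox6a1 (chr5:115348909-115349208, minus strand) and Atp5k (chr5:108434350-108434649, minus strand). All are given 5′ to 3′ on the gene's strand with the matches in capitals.
Ndufb10: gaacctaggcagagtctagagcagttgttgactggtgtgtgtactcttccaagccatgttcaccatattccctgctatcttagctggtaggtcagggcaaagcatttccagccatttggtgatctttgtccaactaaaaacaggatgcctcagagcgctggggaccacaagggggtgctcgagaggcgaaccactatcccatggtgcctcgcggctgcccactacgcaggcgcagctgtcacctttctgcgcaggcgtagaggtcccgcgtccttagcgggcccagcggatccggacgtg
Cox7a2l: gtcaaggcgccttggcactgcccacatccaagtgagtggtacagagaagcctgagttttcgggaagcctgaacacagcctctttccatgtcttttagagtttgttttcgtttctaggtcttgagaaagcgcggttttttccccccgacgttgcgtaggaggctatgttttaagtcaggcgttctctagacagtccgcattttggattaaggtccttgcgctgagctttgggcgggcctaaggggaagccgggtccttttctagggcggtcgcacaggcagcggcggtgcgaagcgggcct
Cox6a1: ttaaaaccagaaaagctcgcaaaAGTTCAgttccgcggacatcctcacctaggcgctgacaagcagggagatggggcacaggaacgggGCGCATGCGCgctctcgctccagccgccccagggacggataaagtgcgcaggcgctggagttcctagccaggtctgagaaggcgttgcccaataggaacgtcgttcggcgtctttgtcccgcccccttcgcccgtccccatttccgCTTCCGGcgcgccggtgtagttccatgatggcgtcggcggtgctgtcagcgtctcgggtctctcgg
Atp5k: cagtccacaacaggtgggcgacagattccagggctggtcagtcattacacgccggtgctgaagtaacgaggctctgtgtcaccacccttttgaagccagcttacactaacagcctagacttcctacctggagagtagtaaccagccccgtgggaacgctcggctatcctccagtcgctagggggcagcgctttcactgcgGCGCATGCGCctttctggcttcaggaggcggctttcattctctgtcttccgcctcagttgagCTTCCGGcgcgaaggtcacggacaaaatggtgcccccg

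In the Cox6a1 window, NRF1 letters lay at -160 to -153 from the start and, overlapping them on the opposite strand, at -162 to -155, with ETS letters at -16 to -10 on the opposite strand and the PXR half-site letters at -227 to -222. In the Atp5k window, NRF1 letters overlapped in the same way at -48 to -41 and -50 to -43, and ETS letters at 13 to 19 after the start on the opposite strand. The windows of Ndufb10 and Cox7a2l, the genes further from 0, held none of these letters, which says nothing about the factors.

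The NRF1 letters were present in 7 of the 50 measured subunit genes with a window (14%), in 6.47% of 5272 other measured genes and in 3.05% of all 27025 genes of the promoter table. The YY1 letters were present in 9 of the 50 (18%), against 5.97% of other measured genes and 3.19% of all genes. The ETS letters were present in 12 of the 50 (24%), close to the 23.3% of other measured genes, and in 9.93% of all genes. The PXR half-site letters were present in 5 of the 50 (10.0%), against 11.3% and 15.7%. A gene counted if any of its windows held the letters, and the 50 subunit genes had 54 windows, against 6738 for the 5272 other measured genes. Per window, the shares were 13.0% against 5.51% for NRF1 letters and 16.7% against 4.88% for YY1 letters. For ETS letters they were 22.2% against 19.9%, and for the PXR half-site letters 9.26% against 9.63%. The subunit windows had a median GC content of 57.5%, below the 61.0% of the other measured genes.

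The log2 differences of subunits with and without each set of letters overlapped. The 7 genes with NRF1 letters had a median of 0.013 (from -0.057 to 0.10), and the 43 without had 0.0099 (from -0.21 to 0.18). The 9 with YY1 letters had a median of 0.059 (from -0.076 to 0.093), with 7 higher and 2 lower. The 41 without had -0.0034, with 19 higher and 22 lower, where 57.6% of all measured genes were higher. The 12 with ETS letters had a median of -0.011, and the 38 without had 0.018. The 5 with the PXR half-site letters had a median of 0.045 (from -0.042 to 0.11), and the 45 without had -0.00029. Genes higher and lower with PCN were 4 and 3 with NRF1 letters, 5 and 7 with ETS letters, and 4 and 1 with the PXR half-site letters. Sets this small do not set 1 motif apart.

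**Figure D3:**
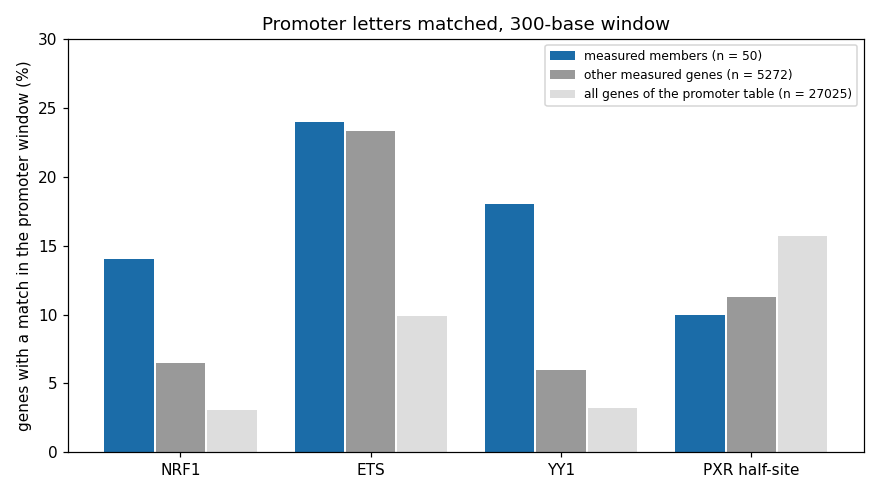
Percent of genes with each set of letters on either strand in any of their promoter windows of 300 bases, for the 50 measured subunits with a window, 5272 other measured genes and all 27025 genes of the promoter table. NRF1 and YY1 letters stand at 14% and 18% in the subunits, above both other bars, and ETS letters stand at 24% in the subunits and 23.3% in other measured genes.

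Complex I, the NADH dehydrogenase, supplied 34 of the measured genes, all that the rule found for it. PCN was higher in 19 and lower in 15, where 57.6% of all measured genes were higher. The median log2 difference was 0.024, beside 0.032 over all measured genes. Centred on the median of all measured genes, the split was 16 higher and 18 lower and the median -0.0086. In 28 of the 34 the difference was within 0.1, as it was in 42.8% of all measured genes.

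The 5 measured core subunits of the matrix arm carry the flavin and iron-sulphur centres that lead electrons to ubiquinone, and they did not move as a block. Ndufv1, which binds NADH and flavin, had an intensity of 1688 with PCN and 1828 with DMSO, a log2 difference of -0.11. Ndufs1, the large iron-sulphur subunit beside it, had 536 with PCN and 578 with DMSO, also -0.11. Both were lower with PCN. The iron-sulphur subunits Ndufv2, Ndufs7 and Ndufs8 were higher with PCN, by 0.060, 0.051 and 0.016.

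The accessory subunits of the matrix arm stabilise it and take part in its assembly. Of 9 measured, 4 were higher with PCN and 5 lower, from -0.076 to 0.10, with a median of -0.00029. Ndufa12, which docks late in assembly, had 2619 with PCN and 2439 with DMSO. Ndufs4, whose loss in mice causes a Leigh-like encephalopathy, had 1043 with PCN and 995 with DMSO. These were 2 of the 4 higher genes, with Ndufa5 at 0.078 and Ndufa2 at 0.063. At the other end, Ndufa9, at the joint with the membrane arm near the ubiquinone site, had 2353 with PCN and 2480 with DMSO, and Ndufv3 had 2835 with PCN and 2960 with DMSO. Ndufs6, a zinc-binding subunit, was level at 3695 with PCN and 3696 with DMSO.

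The accessory subunits of the membrane arm surround the proton-pumping core, whose own subunits are encoded in mitochondrial DNA. Of 18 measured, 11 were higher with PCN and 7 lower, beside 57.6% and 42.4% of all measured genes. The median was 0.035, beside 0.032 over all measured genes, and the 18 ranged from -0.067 to 0.18. Ndufb10 had the largest difference, with 921 with PCN and 813 with DMSO, 1.13-fold higher. Ndufb8, a subunit often probed on blots as a sign of assembled complex I, had 1649 with PCN and 1545 with DMSO, and Ndufs5 had 2064 with PCN and 1948 with DMSO. In the other direction, Ndufa10 had 2510 with PCN and 2630 with DMSO, and Ndufa13, also known as a cell death regulator, had 3909 with PCN and 4046 with DMSO. None of the 18 reached 1.2-fold. The differences of the others, from Ndufb7 at -0.025 to Ndufb5 at 0.079, were within 0.10, the SD of the 40 measured spike-in controls.

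The rule also takes in Ndufa4 and its paralogue Ndufa4l2 by name. Ndufa4 was first described in complex I and is now placed with complex IV, and Ndufa4l2 is known as a gene induced by low oxygen through HIF-1 that lowers respiration in human and mouse cells. Ndufa4l2 had 422 with PCN and 587 with DMSO, 1.39-fold lower, at place 153 from the lowest of the 6449 measured genes. Ndufa4 had 5215 with PCN and 4845 with DMSO, 1.08-fold higher. The paralogues thus differed between the arrays in opposite directions. Without Ndufa4l2, which is the only subunit gene past 1.2-fold, the SD over the subunits was 0.081 in place of 0.10, with 30 higher and 30 lower.

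In complex II, succinate dehydrogenase, which links the citric acid cycle to ubiquinone, all 4 genes were lower with PCN, where 42.4% of all measured genes were lower. The median log2 difference was -0.040, and 3 of the 4 lay within the SD of the 40 measured spike-in controls, 0.10. Sdhc, a membrane anchor that helps bind ubiquinone and heme, had 757 with PCN and 901 with DMSO, 1.19-fold lower. The other anchor, Sdhd, had 2511 with PCN and 2595 with DMSO, a log2 difference of -0.047. The catalytic subunits were nearer to 0. Sdhb, with the iron-sulphur centres, had 5335 with PCN and 5461 with DMSO, and Sdha, with the flavin, had 2240 with PCN and 2270 with DMSO, differences of -0.034 and -0.019.

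In complex III, the cytochrome bc1 complex, 5 of 6 genes were lower with PCN and 1 higher, where 42.4% of all measured genes were lower. The median was -0.017, with a range from -0.057 to 0.10. The core proteins, which sit on the matrix side, went opposite ways. Uqcrc2 had 2218 with PCN and 2069 with DMSO, a log2 difference of 0.10, and Uqcrc1 had 2442 with PCN and 2541 with DMSO, a difference of -0.057. The Rieske iron-sulphur protein Uqcrfs1, which hands electrons to cytochrome c1, had 3968 with PCN and 4000 with DMSO. The small subunits Uqcrh, which is the hinge protein, Uqcr10 and Uqcrq differed by -0.023, -0.042 and -0.00034. All 6 lay within the range of the spike-in controls.

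In complex IV, cytochrome c oxidase, 8 of 13 genes were measured, 4 higher with PCN and 4 lower, with a median of 0.0046 that turned to -0.028 with median centring, to -0.020 with quantile normalization and to -0.0020 after loess correction. The 6 isoforms of most tissues lay between -0.067 and 0.081. Cox6a1 had 11932 with PCN and 11829 with DMSO, Cox6b1 had 7569 with PCN and 7587 with DMSO, and Cox6c had 6723 with PCN and 6782 with DMSO. These 3 were level to within 0.013 on the log2 scale. Cox5a, which joins early in assembly, had 4844 with PCN and 4707 with DMSO, Cox7a2 had 3297 with PCN and 3117 with DMSO, and Cox8a had 2158 with PCN and 2261 with DMSO. Cox7a2l, known as a factor that joins complexes III and IV into supercomplexes, had 342 with PCN and 395 with DMSO, 1.16-fold lower.

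Isoforms of complex IV known from other tissues were under or near the floor in these cells. The heart and muscle forms Cox6a2, Cox7a1 and Cox8b had 15.7, 11.3 and 5.62 with PCN, and 18.1, 11.4 and 5.64 with DMSO. The testis forms Cox6b2 and Cox7b2 had 3.51 and 3.22 with PCN, and 3.61 and 2.85 with DMSO. Cox8c was the dimmest gene to pass the floor, with 44.2 with PCN and 37.7 with DMSO, and Cox6a2 was the brightest to miss it. The log2 difference of Cox8c, 0.23, therefore rests on signal close to the floor.

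In complex V, the ATP synthase, 9 of 10 genes were measured, 6 higher with PCN and 3 lower, where 57.6% of all measured genes were higher. The median was 0.024, beside 0.032 over all measured genes. With median centring the split was 4 higher and 5 lower and the median -0.0086. The measured subunits of the catalytic head and central stalk were level. Atp5b, the catalytic beta subunit, had 12139 with PCN and 12253 with DMSO, and its partner Atp5a1 had 3712 with PCN and 3818 with DMSO, while Atp5d and Atp5e of the stalk differed by 0.0099 and 0.045. Of the membrane part and the peripheral stalk, 4 of 5 measured genes were higher with PCN, beside 57.6% of all measured genes. Atp5k had 6545 with PCN and 6099 with DMSO, a log2 difference of 0.10, Atp5j had 4244 with PCN and 4051 with DMSO, and Atp5j2 had 5224 with PCN and 5014 with DMSO. Atp5mpl, a small membrane proteolipid, went the other way, with 2696 with PCN and 2949 with DMSO, 1.09-fold lower. The ring subunit c is made from several genes that encode 1 mature protein. Of these, Atp5g3 had 11986 with PCN and 11791 with DMSO, and Atp5g1 was under the floor at 2.50 with PCN and 2.29 with DMSO.

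**Figure D4:**
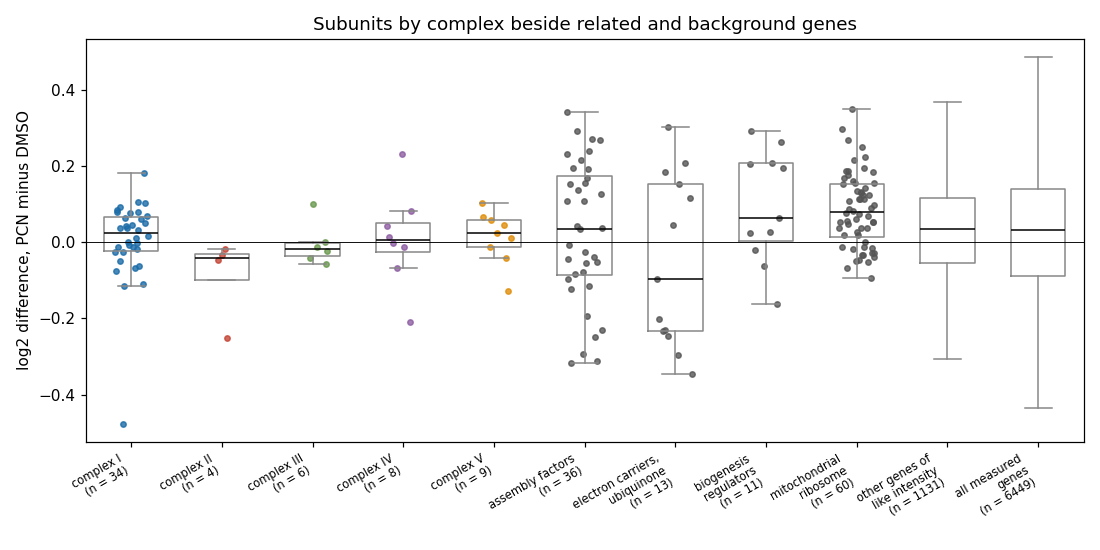
Log2 difference, PCN minus DMSO, of measured genes by complex and in related and background groups (boxes from the 25th to the 75th percentile with the median, whiskers to 1.5 times the box, points for single genes except in the last 2 groups). The medians of the 5 complexes run from -0.040 to 0.024, and the assembly factors spread from -0.32 to 0.34.

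The 5 complexes thus had medians between -0.040 and 0.024, and their ranges overlapped. With 1 array per group, differences between complexes could not be tested. Complex II was lower in 4 of 4 genes and complex III in 5 of 6, as deposited, where 42.4% of all measured genes were lower. Most of these differences were small. In complex II 3 of 4 genes, and in complex III 6 of 6, lay within the SD of the 40 measured spike-in controls, 0.10. The counts of lower genes were the same after quantile normalization, median centring and loess correction, which is no separate support. Median centring lowers every value by 0.032, so it could not turn a lower gene. The median over all subunits also fell with quantile normalization and loess correction, to -0.0058 and -0.013. Closely related genes, among them Ndufa4 and Ndufa4l2 and the Cox and Atp5g isoforms, may share probe signal, which these intensities do not show.

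Among subunits that the symbol rule leaves out, Cox4i1 and Cyc1 were also level, as was the inhibitor gene Atpif1. Ndufab1 and Usmg5 had no probe set under these symbols. Cox4i1, the entry subunit in complex IV assembly, had 7525 with PCN and 7417 with DMSO. Cyc1, cytochrome c1 of complex III, had 4356 with PCN and 4193 with DMSO, and Atpif1, the inhibitor of ATP synthase, had 409 with PCN and 398 with DMSO. These 3 log2 differences lay between 0.021 and 0.055. Cox4i2, the lung form, was under the floor at 5.51 with PCN and 5.10 with DMSO, and the 13 subunits encoded in mitochondrial DNA were not analysed here. Cycs, which encodes the cytochrome c that every respiring cell needs, was at 4.07 with PCN and 3.78 with DMSO, so a value under the floor does not show that a gene was off.

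Assembly factors, which build the complexes without staying in them, spread more widely around 0 than the subunits did. Of 51 listed, 41 had a probe set and 36 were measured. Of the 36, 19 were higher with PCN and 17 lower, beside 57.6% and 42.4% of all measured genes. The 36 had a median log2 difference of 0.036 and an SD of 0.18. The intensities of the assembly factors, with a median of 204 with PCN and 201 with DMSO, were lower than those of the subunits. All measured genes, with a median of 209 with PCN and 207 with DMSO, had an SD of 0.23. The part of intensity in the wider spread was not tested. At least 1.2-fold higher were 4 of the 36, beside 9.06% of all measured genes, and at least 1.2-fold lower were 3, beside 8.95%.

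For complex I, Ndufaf4 had 194 with PCN and 153 with DMSO, 1.27-fold higher, while Ndufaf3, its partner in early assembly, had 84.4 with PCN and 105 with DMSO, 1.24-fold lower. Ndufaf5 had 37.6 with PCN and 46.7 with DMSO, close to the floor. Ndufaf7, a methyltransferase named here after its value was seen, had 154 with PCN and 189 with DMSO. Partners in the assembly of complex I thus lay on both sides of 0, as the 6 higher and 5 lower of 11 measured also show.

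For complex II, the assembly factors Sdhaf2, Sdhaf3 and Sdhaf4 were higher with PCN, by 0.17, 0.24 and 0.15 on the log2 scale, and Sdhaf1 was at -0.040, while the 4 subunits of the complex were lower. Sdhaf2, which places the flavin on Sdha, had 283 with PCN and 252 with DMSO. Sdhaf4, which handles the flavinated Sdha, had 820 with PCN and 737 with DMSO.

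For complex III, Uqcc2, needed for the synthesis of cytochrome b, had 1263 with PCN and 1046 with DMSO, 1.21-fold higher. Bcs1l, which inserts the Rieske protein, had 54.1 with PCN and 63.5 with DMSO, and Uqcc3 and Uqcc1 differed by -0.19 and -0.082. For complex IV, Cox10, which makes the precursor of heme a, had 71.7 with PCN and 58.6 with DMSO, and Cox11, a copper chaperone, had 402 with PCN and 334 with DMSO. The log2 differences were 0.29 and 0.27. Cox14 went the other way, with 571 with PCN and 678 with DMSO, and the complex V factors Atpaf2 and Tmem70 differed by 0.034 and -0.055.

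Electron carriers and enzymes of ubiquinone synthesis were mixed. Of 23 listed symbols, 13 were measured, 6 higher with PCN and 7 lower, with a median of -0.098. Coq8b, an atypical kinase of the ubiquinone pathway, had 249 with PCN and 316 with DMSO, 1.27-fold lower. Dhodh, the pyrimidine enzyme that reduces ubiquinone, had 39.0 with PCN and 47.9 with DMSO, 1.23-fold lower. Coq4 had 131 with PCN and 106 with DMSO, 1.23-fold higher. Of the flavoproteins that bring electrons from fatty acid oxidation, named after their values were seen, Etfb had 1513 with PCN and 1777 with DMSO, Etfdh had 1006 with PCN and 1180 with DMSO, and Etfa had 1560 with PCN and 1669 with DMSO. All 3 were lower with PCN, with log2 differences of -0.23, -0.23 and -0.098.

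Regulators of mitochondrial biogenesis were higher with PCN in 8 of 11 measured genes, beside 57.6% of all measured genes, with a median of 0.064. Yy1, the factor named above, had 1134 with PCN and 945 with DMSO, a log2 difference of 0.26, and Mterf4, which acts in mitochondrial ribosome assembly, had 122 with PCN and 99.2 with DMSO, 1.22-fold higher. Esrra, a nuclear receptor that drives respiratory genes, had 85.0 with PCN and 73.6 with DMSO. Tfam, which packs and transcribes mitochondrial DNA, had 161 with PCN and 154 with DMSO. Ppargc1a, the coactivator PGC-1α, and Nrf1 were under the floor, at 5.44 and 13.7 with PCN and 7.21 and 15.0 with DMSO. Of the uncoupling proteins and adenine nucleotide carriers, 6 in the list, 4 had a probe set. Ucp2 and Slc25a5 had none, so their levels are not known here. Only Slc25a4 was measured, with 1636 with PCN and 1618 with DMSO.

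The mitochondrial ribosome, which translates the subunits encoded in the organelle, had a higher median than the chain. Of its 60 measured genes, 45 were higher with PCN and 15 lower, beside 57.6% and 42.4% of all measured genes. The median was 0.080, beside 0.032 over all measured genes, and the SD was 0.097. These genes were dimmer than the subunits, with a median intensity of 509 with PCN and 503 with DMSO, against 2511 and 2595. For the chain, 30 of 61 were higher, the median was -0.00029 and the SD 0.10. This difference between the lists could not be tested with 1 array per group.

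The cells carried the hepatocyte label. Of 12 hepatocyte markers 10 had a probe set, all but Cps1 and Ass1, and these 10 were measured. Their intensities ran from 457 to 22061 with PCN and from 529 to 22527 with DMSO. Cyp2e1, Hnf4a and Ahsg differed most, by 0.32, -0.21 and -0.15 on the log2 scale. Markers of other liver cells were mostly under the floor. Measured were 1 of 6 for Kupffer cells and leukocytes, 2 of 6 for endothelium, 1 of 6 for stellate cells and 2 of 6 for bile duct (Spp1 had no probe set). Their summed intensities were 1672, 141, 77.4 and 333 with PCN, and 1735, 128, 83.7 and 310 with DMSO, in that order, and the defining leukocyte marker Ptprc, named after its value was seen, was at 4.88 with PCN and 4.37 with DMSO. Cd68, the 1 measured marker of Kupffer cells and leukocytes, was bright, with 1626 with PCN and 1690 with DMSO, a log2 difference of -0.056. The bile duct markers Krt19 and Sox9 differed by 0.40 and -0.42 on the log2 scale. The endothelial Lyve1 and Stab2 had 39.8 and 37.0 with PCN, and 30.4 and 42.1 with DMSO, and the stellate Acta2 had 30.6 with PCN and 36.5 with DMSO, all close to the floor. The part of other cells in the subunit values was not tested. In bulk RNA, fewer cells of a type and less RNA per cell cannot be told apart, and normalization between the arrays can hide a general shift in mitochondrial content per cell. Cyp3a11, a known PXR target, was 1.87-fold higher, with 15919 with PCN and 8519 with DMSO.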

How the data were processed

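Gene expression was measured in 2 pooled RNA samples, 1 Affymetrix array each. The deposited values are GCRMA intensities (GCRMA 2.2.0, per the submitters' processing notes), background-corrected and normalized by the authors. As deposited, the arrays did not share an identical distribution. Quantile normalization took the median log2 difference of all measured genes from 0.032 to 0.017. Their range, 1.13 to 28482, shows a linear scale. The genome build and the probe set definition: not given in the sources used here. Array number, not depth, limits the precision.

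Of 16395 probe sets, 64 were controls and 687 had no symbol in the platform annotation and were left out. All 67 subunit genes were found in RefSeq GRCm38.p6 with the same symbol. Log2 differences (PCN minus DMSO) came from pandas 2.3.3 and numpy 2.4.6 under Python 3.11.15. Genes under an intensity of 32 in both arrays counted as not measured, and a value under 32 in 1 array was raised to it, which applied to no subunit. Listed symbols without a probe set also counted as not measured. With 1 array per group no test was run. The size rule was 1.2-fold, and its code was tested on simulated data. Members and lists were chosen with earlier results of these data known. Every measured subunit could be named. Of each other list the 3 with the largest difference were named, with all members of lists under 5 and Ppargc1a, Nrf1, Tfam, Esrra, Cycs, Cox4i1 and Cyc1; the text says where a gene was named with its value known. The promoters printed, the motifs and the grouping of subunits by role were chosen after the values were seen. Alternatives were other floors, values as deposited, quantile normalization, median centring, a loess trend (statsmodels 0.14.6, fraction 0.3), a threshold of 1.5-fold and other memberships.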

Additional observations from a re-analysis of the deposited data

How the results depend on the processing

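All alternatives were planned except leaving out Ndufa4l2 and the percentile range for genes of like intensity, which were added after seeing the data. Of 56 medians recomputed, 11 turned sign, all of them close to 0. The median of all subunits ran from -0.033 to 0.011, of complex I from -0.0086 to 0.031, of complex II from -0.073 to -0.040, of complex III from -0.050 to -0.011, of complex IV from -0.028 to 0.027 and of complex V from -0.0086 to 0.034. The number of subunits at least 1.2-fold lower was 2 in place of 1, with Sdhc added, under quantile normalization, median centring and the loess trend, 0 at 1.5-fold and 0 without Ndufa4l2. At least 1.2-fold higher was 1 subunit, Cox8c, under quantile normalization in place of 0. Of 183 single-gene values under scalings, none moved by more than 0.057 on the log2 scale, and 12 turned sign. The median of all measured genes stayed between 0 and 0.037 under every setting. Leaving out a replicate was not possible with single arrays. No paired analysis was possible because there is a single array on each side.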

Other observations

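Because Ndufa4l2 is known as a HIF-1 target, 20 other known HIF-1 target genes were listed after its value was seen, and those named here were also chosen after their values were seen. Of the 20, 16 had a probe set and 14 were measured. Of the 14, 8 were higher with PCN and 6 lower, beside 57.6% and 42.4% of all measured genes. The median log2 difference of the 14 was 0.048, beside 0.032 over all measured genes. Slc2a1, the glucose transporter GLUT1, had 875 with PCN and 685 with DMSO, 1.28-fold higher. Mxi1, a repressor that antagonises MYC, had 91.8 with PCN and 119 with DMSO, 1.30-fold lower. Egln3, an oxygen-sensing hydroxylase, had 565 with PCN and 498 with DMSO, and Adm, the peptide hormone adrenomedullin, had 627 with PCN and 547 with DMSO. Pdk1, which limits pyruvate entry into mitochondria, had 467 with PCN and 478 with DMSO, and Vegfa had 183 with PCN and 197 with DMSO. These genes lay on both sides of 0, and Ndufa4l2 at -0.48 was further from 0 than each of the 14. Ndufa4l2 was taken up because it was the subunit gene furthest from 0, so that ranking follows in part from the choice. A HIF-1 response was not tested.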
